A study of Mus musculus with 2 samples.

Results

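The genes described here are 9 genes of B cell precursors and of antigen receptor recombination: Vpreb1, Igll1, Vpreb3, Rag1, Rag2, Dntt, Ebf1, Pax5 and Gfra1. They were taken by gene symbol from the count tables of 2 mouse liver libraries, in which they are 9 of 32285 genes, and were followed by cell class within each library. All 9 had a UMI (a count of 1 captured transcript) in the library labelled P180, as had 22878 of all 32285 genes. In the library labelled E18.5, 7 of 9 had one, as had 23046 of all 32285 genes. Rag1 and Rag2 had 0 UMIs there.

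Each library is 1 liver. By their labels, the P180 liver came from an animal at postnatal day 180 and the E18.5 liver from an embryo late in gestation. Both hosts lacked Hhex, a transcription factor gene of liver development, and had received tetraploid (4N) embryonic stem cells positive for tdTomato as blastocysts. The gene table holds 0 tdTomato features, so donor and host cells cannot be told apart here, and B cells of either origin are pooled. With 1 liver per label there is no replicate check on any difference, and no p-value is given. Intervals are exact 95% intervals and cover counting error only.

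The makeup of the libraries goes against what their labels lead one to look for, so the labels are used here only as names. In the library labelled P180, 6526 of 8847 cells were erythroid-like, with red cell markers. The library labelled E18.5 held mainly B cell-like and endothelial-like cells, 1307 and 1016 of 4543 cells. No cluster of either library took the name of hepatocytes, the main cells of liver. The P180 library was the deeper, with 90128038 against 37709972 UMIs, and its barcodes had a median mitochondrial share of 0.655% against 16.7%. The libraries shared 28 barcode sequences, 11 of them among the cells kept and 0 among B cell-like cells.

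B cells develop from progenitors that rearrange their immunoglobulin genes in steps. RAG1 and RAG2 cut the DNA, Dntt encodes the polymerase that adds bases at the joins, and the heavy chain so made is shown at the cell surface with a surrogate light chain of VpreB and lambda 5 until a true light chain replaces it. In the textbook sequence, cells with a surrogate light chain divide as large pre-B cells, and light chains are rearranged later in small resting cells. The fetal liver is a site of this process in mice, and in adults the bone marrow takes its place.

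B cell-like cells were named from 14 markers that include none of the 9 genes. They numbered 201 of 8847 cells (2.27%, 1.97 to 2.60) with the P180 label and 1307 of 4543 (28.8%, 27.5 to 30.1) with the E18.5 label, at medians of 5991 and 4625 UMIs per cell. Cd79a, a signalling chain of the B cell receptor, was found in 98.0% of these cells labelled P180 and 94.8% of those labelled E18.5. Ms4a1 (CD20) and Ighd, both of mature B cells, had UMIs in 45.3% and 29.9% of the cells labelled P180, against 85.3% and 76.7% of the cells labelled E18.5.

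Markers of red cells were also present in the B cell-like class, with 11 of the 11 measured detected and a summed level of 31238 CPM (counts scaled to the usual common total of UMIs) with the P180 label, against 7 of 11 and 995 CPM with the E18.5 label. All 12 neutrophil markers were detected in B cell-like cells labelled P180, at a summed level of 607 CPM. With the E18.5 label 3 of 12 were at 0, and the level was 91.2 CPM. S100a8, a neutrophil marker, was found in 76.6% of the cells labelled P180 and 11.6% of those labelled E18.5. Of 12 T cell markers, 6 were at 0 in B cell-like cells labelled P180, Cd3e among them, and 2 with the E18.5 label. No cluster labelled P180 took the name of T cells. The part of red cell, neutrophil and T cell RNA in the levels below was not tested.

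Igll1 encodes lambda 5 and Vpreb1 encodes VpreB, the 2 chains that together form the surrogate light chain. The genes are neighbours on the minus strand of chromosome 16 (mm10), with Igll1 at 16860671 to 16863985, Vpreb1 at 16868403 to 16870843, and 4417 bases between them. The 250 bases upstream of their RefSeq starts are shown here since the 2 genes were largely found in the same cells, beside those of Rag1, the recombination gene with the most UMIs. Capitals mark CCCNNGGG, the core of the motif that EBF1 binds, and CANNTG, the E-box bound by E proteins such as the product of Tcf3. The searches covered both strands, and both patterns read the same on each.
Igll1, chr16:16863986-16864235 (GRCm38.p6, minus strand, no exon of the genes described here in the window): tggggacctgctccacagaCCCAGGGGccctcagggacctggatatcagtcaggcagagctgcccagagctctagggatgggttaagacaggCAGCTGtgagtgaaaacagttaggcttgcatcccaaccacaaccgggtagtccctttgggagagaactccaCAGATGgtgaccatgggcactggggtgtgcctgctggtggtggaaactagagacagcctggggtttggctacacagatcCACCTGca
Vpreb1, chr16:16869256-16869505 (GRCm38.p6, minus strand, overlapping an exon of a non-coding transcript of the gene): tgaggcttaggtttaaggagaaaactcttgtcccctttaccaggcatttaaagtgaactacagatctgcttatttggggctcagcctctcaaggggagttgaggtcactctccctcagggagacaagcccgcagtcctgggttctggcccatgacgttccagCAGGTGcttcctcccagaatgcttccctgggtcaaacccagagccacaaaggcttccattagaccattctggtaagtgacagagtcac
Rag1, chr2:101649533-101649782 (GRCm38.p6, minus strand, no exon of the genes described here in the window): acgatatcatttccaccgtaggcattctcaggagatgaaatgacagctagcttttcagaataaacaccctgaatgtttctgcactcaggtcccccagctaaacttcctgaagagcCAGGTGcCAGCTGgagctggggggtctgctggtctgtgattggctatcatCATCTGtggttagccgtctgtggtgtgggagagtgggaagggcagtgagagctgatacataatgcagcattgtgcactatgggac

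The Igll1 window held CCCNNGGG 1 time and CANNTG 3 times, the Vpreb1 window 0 and 1 times, and the Rag1 window 0 and 3 times. Among 32841 RefSeq windows of 250 bases, 11.8% held CCCNNGGG and 66.2% held CANNTG. A match in letters is a description of the window and says nothing on binding.

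Surrogate light chain transcripts were found in B cell-like cells labelled P180 and were at background with the E18.5 label. Igll1 had 840 UMIs (353 CPM, 329 to 377) in the 201 cells labelled P180. In the 1307 cells labelled E18.5 it had 0 UMIs, with an upper limit of 0.566 CPM. Taking 3 counts over the class for the 0, the ratio is 766, and the exact lower limit of the ratio is 621. Vpreb1 had 691 UMIs (290 CPM, 269 to 313) with the P180 label, against 1 UMI (0.154 CPM) with the E18.5 label, a ratio of 1890 with an interval from 338 to 74747.

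The 1 UMI with the E18.5 label lies below the level of Vpreb1 in T cell-like cells of the same library, which had 5 UMIs in 364 cells (2.51 CPM). At a median of 5278 UMIs a cell, 1.37% of these T cell-like cells had a Vpreb1 UMI, against 0.0765% of the B cell-like cells. In the library labelled P180 the background was taken from erythroid-like cells, of similar depth (median 5209 UMIs). Vpreb1 was found in 20.9% of B cell-like cells there (15.5 to 27.2) against 0.230% of erythroid-like cells, and Igll1 in 19.9% (14.6 to 26.1) against 0.184%.

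Either surrogate light chain gene was detected in 22.9% of B cell-like cells labelled P180 and in 0.0765% of those labelled E18.5. With each cell thinned to 1000 UMIs, the shares were 12.1% and 0.0769%. Vpreb2, a copy of Vpreb1 on the same chromosome, had 148 UMIs (62.1 CPM) with the P180 label and 0 with the E18.5 label. Its transcript is 97.4% identical to that of Vpreb1 where the 2 align, and 96.0% over the last 300 bases, where 3′ libraries are read. How the authors' counting divided reads between the copies is therefore uncertain, and the level of each alone is too. All 22 cells with Vpreb2 also had Vpreb1 and Igll1.

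Vpreb3 encodes a related chain that binds newly made immunoglobulin chains and is not part of the surrogate light chain. Unlike Vpreb1 and Igll1 it was well detected under both labels, with 3205 UMIs (1346 CPM, 1300 to 1393) labelled P180 against 615 UMIs (94.4 CPM, 87.1 to 102) labelled E18.5, or 14.3-fold higher (13.1 to 15.6). It was present in 92.0% of the B cell-like cells labelled P180 and in 32.2% of those labelled E18.5. Among cells with an Ms4a1 or Ighd UMI alone, Vpreb3 stood at 1057 CPM in 117 cells labelled P180 and at 96.2 CPM in 1239 cells labelled E18.5. These cells were not alike in other genes, with the division gene Mki67 in 31.6% and 0.484% of them, and Cd74, of antigen presentation, at 2035 and 6607 CPM.

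**Figure D1:**
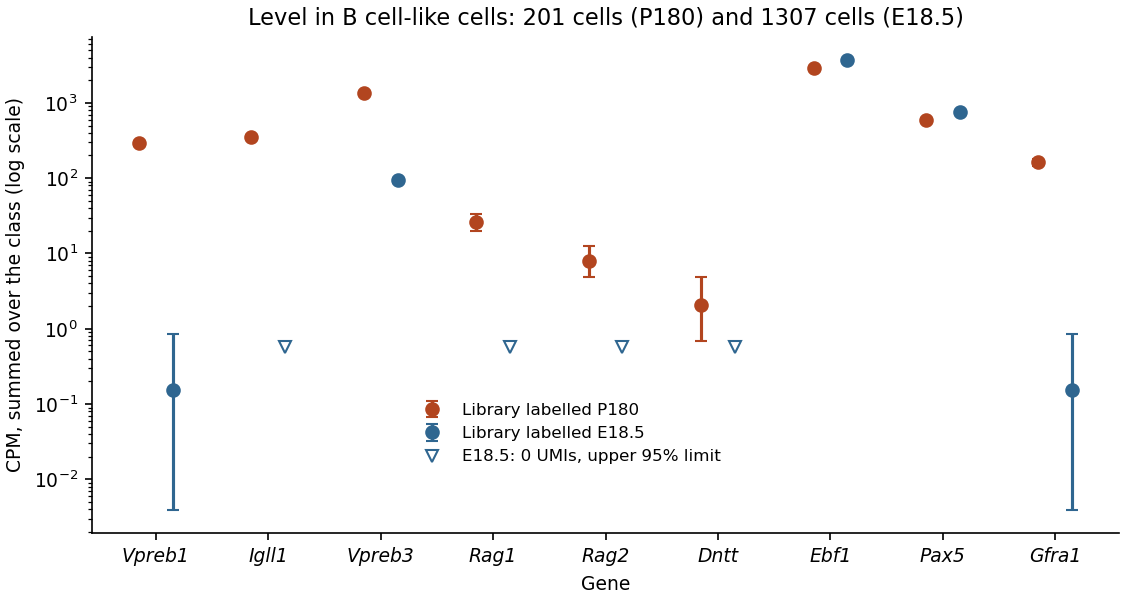
CPM summed over B cell-like cells for each gene (log axis), with exact 95% intervals, for the library labelled P180 (red) and the library labelled E18.5 (blue); open triangles are upper limits where 0 UMIs were counted. Ebf1 and Pax5 lie close together, within a ratio of 0.783 and 0.776 (Ebf1 turns to the higher side with P180 when every cell is weighted equally), and the other 7 genes lie higher with the P180 label.

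In B cell-like cells the recombination genes were detected with the P180 label only, at low counts. Rag1, at chromosome 2, 101638282 to 101649501 on the minus strand, encodes the subunit that cuts DNA. It had 62 UMIs (26.0 CPM, 20 to 33.4) in 33 of 201 cells with the P180 label. With the E18.5 label it had 0 UMIs in 1307 cells. By the rule used above for 0 UMIs, the ratio is 56.5, with an exact lower limit of 44.6. Rag2 encodes the partner of RAG1 in the recombinase and lies 5752 bases away on the plus strand. It had 19 UMIs (7.98 CPM, 4.80 to 12.5) in 15 cells with the P180 label and 0 with the E18.5 label. The ratio by the same rule is 17.3, with an exact lower limit of 12.8.

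Neither gene had a UMI in any of the 6526 erythroid-like cells labelled P180. Vpreb1 and Igll1, at higher counts, had 23.2 and 14.3 UMIs in erythroid-like cells per 1000 in B cell-like cells. The 11220 bases of Rag1 lie wholly within the gene B230118H07Rik on the same strand. This gene had 47 UMIs in the same cells, so the split of reads between the 2 is uncertain.

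Dntt, which encodes terminal transferase, was scarce in B cell-like cells. It had 5 UMIs (2.10 CPM, 0.682 to 4.90) in 2 of 201 cells labelled P180 and 0 UMIs in 1307 cells labelled E18.5. Both cells also had Vpreb1, Igll1 and Rag2, with 16 and 26 UMIs of Vpreb1 and 18 and 26 of Igll1, and neither had Igkc, the kappa light chain constant gene. They also held Lin28b and Igf2bp3, RNA-binding protein genes known from fetal blood formation. Neither gene was particular to them. Of the 13 cells labelled P180 without Igkc, 6 held Lin28b and 6 held Igf2bp3, as did 24 and 109 of the 188 with Igkc.

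Most Dntt UMIs lay outside the B cell-like class. With the P180 label, 30 of the 36 UMIs in cells kept were in 2 monocyte-like cells, both with Flt3, the receptor of early lymphoid and dendritic progenitors. One of these, with 16 of the 30, also held B lineage genes, with 133 UMIs of Ebf1, 4 of Rag1, 6 of Il7r and 5 of Cd79a. With the E18.5 label, 21 of 34 UMIs were in 1 dendritic-like cell with 19 UMIs of Flt3, and 12 in 6 cholangiocyte-like cells (bile duct cells) with 0 UMIs of Flt3. With single cells holding so many of its UMIs, no class level of Dntt describes its class.

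The transcription factors of B cell identity were alike in share and close in level. Ebf1, which opens the B lineage programme, had 2927 CPM (2858 to 2996) with the P180 label and 3739 CPM (3692 to 3786) with the E18.5 label, a ratio of 0.783. It was detected in 200 of 201 and 1293 of 1307 cells. Pax5, which commits cells to the B lineage, had 588 CPM (558 to 620) with the P180 label and 758 CPM (737 to 780) with the E18.5 label, a ratio of 0.776. Its share of cells was 92.5% and 91.3%. The direction for Ebf1 depends on how cells are weighted, since the mean of CPM over single cells was 4380 with the P180 label and 3877 with the E18.5 label. For Pax5 these means were 755 and 780.

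Gfra1 encodes the co-receptor for glial cell line-derived neurotrophic factor (GDNF), which signals through Ret, and lies on chromosome 19 at 58235604 to 58455909. It had 385 UMIs (162 CPM, 146 to 179) in 98 of 201 cells with the P180 label and 1 UMI (0.154 CPM) in 1307 cells with the E18.5 label, a ratio of 1053 with an interval from 188 to 41693. In erythroid-like cells labelled P180 it was found in 0.0306% of cells, against 48.8% of B cell-like cells. The rest of its pathway was scarce in the same cells. Gfra2 had 54 UMIs with the P180 label and 0 with the E18.5 label, and Ret, Gfra4, Gdnf and Artn had 0 UMIs in B cell-like cells of either library.

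Read over all genes, 7 of the 9 reached 50 UMIs in B cell-like cells of at least 1 library, and 5 of these 7 passed 2-fold on the higher side with P180 (Vpreb1, Igll1, Vpreb3, Rag1 and Gfra1), 0 lower and 2 between. Of 8649 genes with that minimum, 23.4% passed 2-fold on the higher side and 18.2% on the lower. Vpreb1, Igll1, Rag1 and Gfra1 reached the minimum only through the P180 label and so could only be higher, and nothing is read from the count. Among genes past 2-fold, 56.3% were higher with the P180 label, and 42.0% were when libraries were scaled by the median of ratios, which moved the median log2 ratio of all genes to -0.20 from 0.08. The same 5 genes stayed past 2-fold under that scaling.

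The other lists of genes were read in the same way, each beside the median of 0.08 for all genes. Of 17 early B transcription factors with enough UMIs, 5 passed 2-fold on the higher side with P180, 0 on the lower, and 12 fell between (median log2 ratio 0.36). Sox4 and Myb reached 50 UMIs only through the P180 label and so could only be higher. Sox4, a factor that B cell progenitors need, stood at 347 CPM with the P180 label and 4.45 CPM with the E18.5 label, and Myb at 227 and 3.84 CPM. The lowest ratios were those of Bach2, at 1282 CPM with the P180 label and 2334 CPM with the E18.5 label, and Bcl11a, at 235 and 384 CPM.

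Of 18 surface and signalling genes of precursors, 8 passed 2-fold on the higher side, 2 on the lower, and 8 fell between (median 0.21), and 5 of the 18 reached the minimum only through the P180 label. Il7r, the interleukin 7 receptor on which mouse precursors depend, stood at 198 CPM with the P180 label and 0.768 CPM with the E18.5 label. Syk and Blk, kinases of B cell receptor signalling, were the 2 lower genes, Blk at 270 and 785 CPM and Syk at 313 and 802 CPM.

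Of 13 end joining and recombination partners, which repair the cuts that RAG proteins make or assist them, 5 passed 2-fold on the higher side, 1 on the lower, and 7 fell between (median -0.17), and Lig4 could only be higher in the same sense. Hmgb2 stood at 1812 CPM with the P180 label and 172 CPM with the E18.5 label, and Lig4, the ligase of end joining, at 21.8 and 1.54 CPM. Trp53bp1, the 1 lower gene, stood at 17.6 and 38.4 CPM.

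Genes of mature B cells ran the other way. Of 20, 18 passed 2-fold on the lower side with P180 and 0 on the higher (median -3.05), among them Cr2 (complement receptor 2) at 3.78 CPM with the P180 label and 160 CPM with the E18.5 label. Cr2, Fcer2a and Cxcr5 reached 50 UMIs only through the E18.5 label. Of 9 immunoglobulin chain genes, 6 were lower, 0 higher and 3 between (median -3.47), and 3 of the 9 (Ighg1, Igha and Jchain) reached 50 UMIs only through the E18.5 label. Ighm was among those between, at 2193 and 1637 CPM. All 16 genes of cell division passed 2-fold on the higher side (median 5.64), but 11 of them could only be higher, as above. Pcna, which both libraries held in number, stood at 226 CPM with the P180 label and 83.8 CPM with the E18.5 label.

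Ebf1 and Vpreb3 were also detected beyond B cell-like cells. Plasma cell-like cells, found with the E18.5 label only, had Vpreb3 at 90.5 CPM (77.8 to 105) in 56 of 112 cells, close to the 94.4 CPM of B cell-like cells there. Ebf1 stood in them at 187 CPM and Pax5, which plasma cells shut off, at 6.0 CPM (3.10 to 10.5). B cell markers were among the leading genes of that cluster too, 5 of them, and whether B cell RNA adds to these values was not tested.

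Ebf1 was the 1 gene of the 9 with many UMIs in stromal and vessel cells, where B cell genes were near 0. In mesenchymal-like cells it had 6 UMIs in 4 of 106 cells (6.13 CPM) with the P180 label. With the E18.5 label it had 48 UMIs in 9 of 93 such cells (115 CPM), with 22 of the 48 UMIs in 1 cell. Endothelial-like cells had 20 UMIs in 10 of 110 cells (32.0 CPM) with the P180 label. With the E18.5 label they had 168 UMIs in 70 of 1016 cells (42.7 CPM), with 31 of the 168 UMIs in 1 cell. Of these 70 cells, 1 had a UMI of Cd79a or Cd79b. All 1016 endothelial-like cells together held 28.0 UMIs of Ebf1 for each of Cd79a, against 2.79 in B cell-like cells of the library. EBF1 is known from stromal and fat cell precursors as well as from B cells.

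Within the 201 B cell-like cells labelled P180, the 9 genes were not all found in the same cells. Cells held between 1 and 8 of the 9 genes, most often 3 (74 cells), and 2 cells held 8. With the E18.5 label no cell held more than 3, and 823 of 1307 held 2. There, 392 of the 421 cells with Vpreb3 had Pax5 and all 421 had Ebf1.

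Vpreb1 and Igll1 were found together. Of 42 cells with Vpreb1, 36 had Igll1 (85.7%, 71.5 to 94.6), which is 90% of the 40 cells with Igll1, where the product of the 2 shares would give 8.36 cells. Over the 46 cells with either gene, their levels had a Pearson correlation of 0.79 on the log2(UMIs per 10000 + 1) scale, as a description over cells of 1 library that share its depth. The median was 7 UMIs of Vpreb1 and 10.5 of Igll1 in these cells, with highest values of 70 and 83.

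The 46 cells were far deeper than the rest, with a median of 20864 UMIs against 5394 in the other 155 cells, and held 50.7% of the UMIs of the class. Their summed level of red cell markers was 15822 CPM against 47091 CPM in the other 155. Thinned to 3000 UMIs per cell, a depth added after seeing the data, 21 of 27 cells with Vpreb1 had Igll1 (77.8%), and at 1000 UMIs 7 of 16 (43.8%), against products of 4.28 and 1.21 cells.

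**Figure D2:**
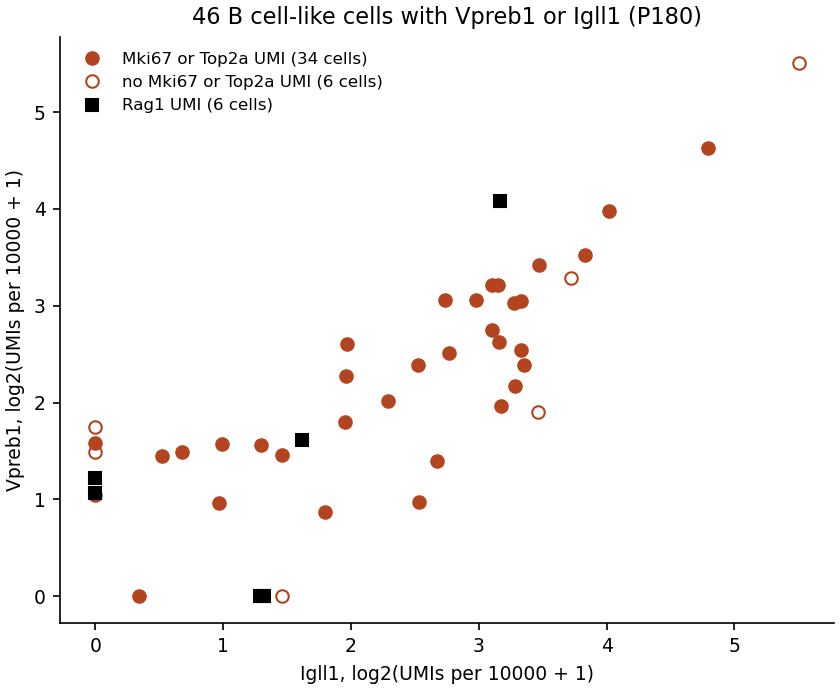
Igll1 (x axis) against Vpreb1 (y axis), both as log2(UMIs per 10000 + 1), in the 46 B cell-like cells labelled P180 with either gene. Filled circles have a Mki67 or Top2a UMI (34 cells), open circles have neither (6 cells) and black squares have a Rag1 UMI (6 cells); the correlation over the 46 cells is 0.79.

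Rag1 was found in 6 of the 46 cells with a surrogate light chain gene (13%) and in 27 of the 155 without (17.4%), or in 2.17% and 5.92% after thinning. Its summed level was 8.28 CPM (3.97 to 15.2) in the cells with and 44.3 CPM (33.1 to 58.1) in the cells without, at medians of 20864 and 5394 UMIs. Rag1 and Vpreb1 shared 4 cells, where the product of their shares would give 6.90. Rag1 and Rag2 shared 5 cells of the 43 with either. With so few UMIs a cell, the absence of a UMI does not show that a cell lacked the transcript.

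Gfra1 was in 34 of the 42 cells with Vpreb1 (81.0%) and in 28 of the 33 with Rag1 (84.8%). The products of shares would give 20.5 and 16.1 cells, and 61 of the 98 cells with Gfra1 had neither surrogate light chain gene. Cells with Vpreb1 were deeper than those without (medians of 21934 and 5427 UMIs). Thinned to 3000 UMIs per cell, Gfra1 shared 12 cells with Vpreb1 and 17 with Rag1, against products of 9.59 and 8.17. At 1000 UMIs it shared 5 cells with each, against 3.31 and 2.90. Gfra1 stood at 158 CPM in the 46 cells with either surrogate light chain gene, against 162 CPM over the class. Cells with and without Rag1 were of like depth (medians of 5669 and 6035 UMIs), and Gfra1 stood at 518 CPM in the 33 cells with Rag1 and at 124 CPM in the 168 without. In the same cells Ebf1 stood at 5929 and 2609 CPM, and Il7r at 693 and 146 CPM. Ms4a1 was found in 1 of the 33 cells with Rag1 and in 90 of the 168 without. All 33 cells with Rag1 had Igkc.

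**Figure D3:**
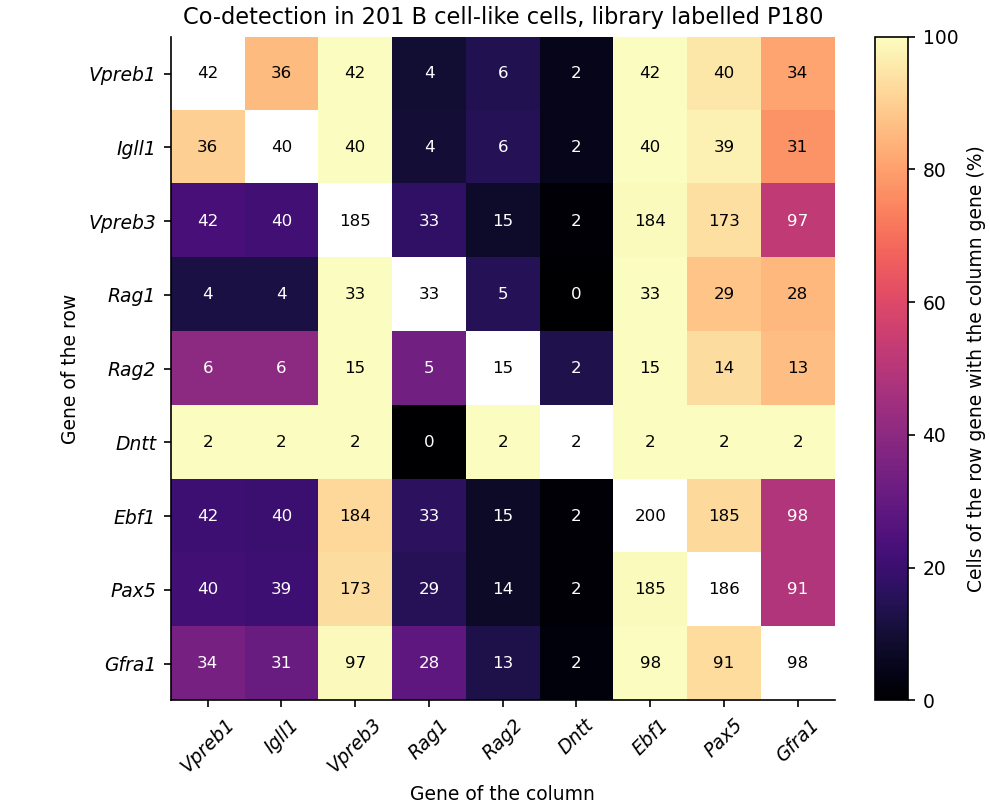
Number of the 201 B cell-like cells labelled P180 with a UMI of both the row and the column gene (diagonal, cells with the gene); colour gives the share of the row gene's cells. Vpreb1 and Igll1 share 36 cells, Vpreb1 and Rag1 share 4, and Gfra1 shares 34 and 28 cells with Vpreb1 and Rag1.

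The cells were next divided by genes outside the 9. Mki67 and Top2a mark dividing cells, and 79 of the 201 cells labelled P180 had a UMI of either, against 46 of 1307 labelled E18.5. With the P180 label Vpreb1 was in 46.8% of these dividing cells (35.5 to 58.4) and 4.10% of the 122 others, or in 19.0% and 3.36% after thinning to 1000 UMIs. Igll1 was in 44.3% and 4.10%, or in 8 of 79 (10.1%) and 4 of 119 (3.36%) after thinning. Another random draw, over the whole class, found Igll1 in 16 of 198 cells. Rag1 was found in 16.5% of the dividing cells and 16.4% of the others, but in 1.27% and 8.40% after thinning, at 12.7 and 62.1 CPM. The dividing cells were deeper (median 13800 against 4911 UMIs), and the part of depth in these shares beyond the thinned values was not tested. In the 46 dividing cells labelled E18.5, Vpreb1, Igll1, Rag1 and Gfra1 all had 0 UMIs.

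Ms4a1 and Ighd mark mature cells. Of the 79 cells labelled P180 with a UMI of these and of neither Mki67 nor Top2a, 0 had Vpreb1 or Igll1 (exact upper limit 4.56% for each), and 5 had Rag1. The 43 cells with none of the 4 marker genes had the highest share of Rag1 (34.9%, 21.0 to 50.9) and Gfra1 at 651 CPM, at the lowest depth (median 4227 UMIs). Gfra1 was in 76.2% of the 84 cells without Ms4a1 and Ighd and in 29.1% of the 117 with either, or in 31.7% and 8.62% after thinning. Vpreb3 was in 96.4% of cells without and 88.9% of cells with these genes, or in 78.0% and 61.2% after thinning, at 1786 and 1057 CPM.

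**Figure D4:**
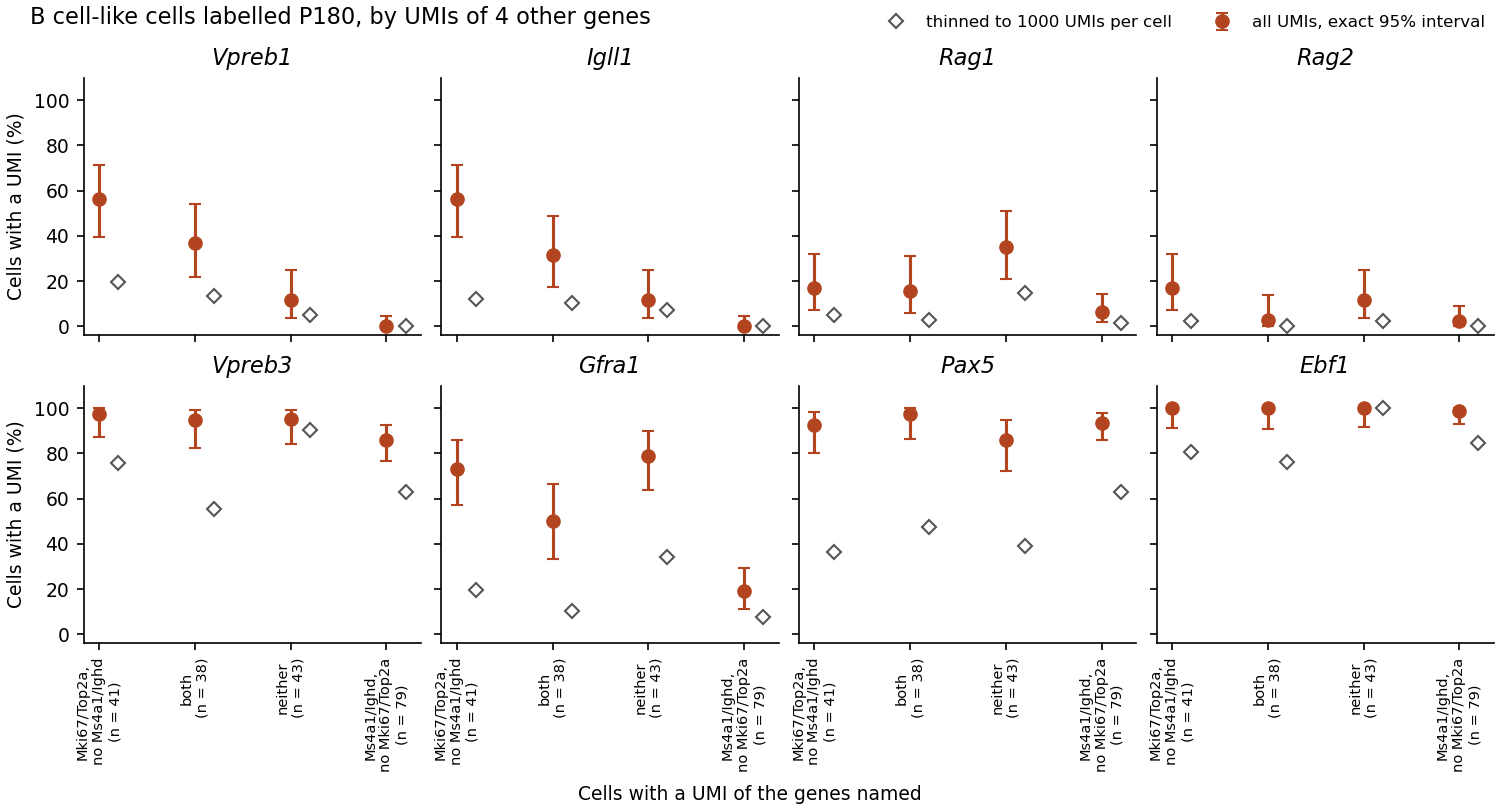
Share of B cell-like cells labelled P180 with a UMI of each gene, in cells grouped by UMIs of Mki67 or Top2a and of Ms4a1 or Ighd (filled circles with exact 95% intervals; open diamonds, cells thinned to 1000 UMIs). Vpreb1 and Igll1 are highest where Mki67 or Top2a is found without Ms4a1 or Ighd (56.1% each), Rag1 where none is found (34.9%), and Ebf1 is near 100% in every group before thinning.

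Il7r and Igkc were used in the same way. Of the cells labelled P180 with Il7r, 36.5% had Vpreb1 and 27.9% had Rag1, against 4.12% and 4.12% of the 97 without. The 13 cells without Igkc had Igll1 in 7 cells (937 CPM, against 317 CPM in the 188 with Igkc). Rag1 was in 0 of the 13 (exact upper limit 24.7%) and in 33 of the 188 (17.6%). So few cells without Igkc cannot show a lower share of Rag1. In the library labelled E18.5, 4 of 1307 B cell-like cells had Il7r.

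The genes closest in pattern were named by Pearson correlation of log2(CPM + 1) over 45 clusters of both libraries, as a description. Vpreb2 was closest to Igll1 (0.98), to Rag1 (0.99), to Gfra1 (0.88) and to Vpreb1 (0.84), and Fam189a1 came next for all 4 (0.95, 0.97, 0.85 and 0.82). The third was Gm49439 for Igll1, Rag1 and Gfra1 (0.90, 0.93 and 0.82) and Smim41 for Vpreb1 (0.80). These values rest largely on the 1 cluster of B cell-like cells labelled P180. Vpreb3 was closest to Gm12158 (0.92), 2010309G21Rik (0.90) and Srpk3 (0.89). Ebf1 was closest to Blk (0.91), Ms4a1 (0.90) and Bcar3 (0.90), and Pax5 to Fcmr (0.96) and Ms4a1 (0.93).

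Genes of fetal B lymphopoiesis were read beside the 9. Of 10, 6 had enough UMIs, of which 4 passed 2-fold on the higher side, 1 on the lower, and 1 fell between, and 3 of the 6 reached the minimum only through the P180 label. Lin28b had 88 UMIs (37.0 CPM) with the P180 label and 1 UMI (0.154 CPM) with the E18.5 label. Igf2bp3, named after its values were seen, stood at 160 and 5.84 CPM. Arid3b, the 1 lower gene, stood at 30.2 and 70.8 CPM, and Bcl11a, the 1 between, at 235 and 384 CPM. Lin28b was in 18 of the 46 cells with a surrogate light chain gene and in 12 of the 155 others. Its level was 58.8 and 14.5 CPM, and after thinning it was in 2.17% and 1.32% of these cells. Igf2bp3 stood at 155 and 164 CPM in them, and was in 15.2% and 13.8% after thinning. The thinned shares of Lin28b rest on few cells of 1 random draw. Another draw, with cells split by Mki67 or Top2a, found it in 3 of 79 and 6 of 119 cells. The part of depth in its shares was not tested.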

How the data were processed

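Single-cell 3′ libraries of 2 livers were deposited as raw UMI counts, which, per the file headers, the authors made with Cell Ranger 7.1.0. The build mm10 and the tools fastp, Trimmomatic, Seurat and edgeR are named in the submitters' processing notes without their role. Kept barcodes had 500 UMIs or more, 200 genes or more and a mitochondrial share below 25%, and doublets were removed by Scrublet score at a set rate of 0.8% per 1000 barcodes. That left 8847 cells (P180 label) and 4543 cells (E18.5 label), with 735 and 178 barcodes of highest doublet score removed. Scrublet's own threshold called 0 and 79 doublets. Each library was clustered alone (scanpy 1.11.5, 2000 variable genes, 30 components, Leiden resolution 1) with the 9 genes left out, and clusters were named from 17 marker sets. A cluster labelled E18.5 of 83 cells with both B cell and haemoglobin genes stayed unnamed.

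UMIs were summed per class and given as CPM with exact intervals (scipy 1.17.1). Ratios are P180 over E18.5, for genes with at least 50 UMIs in B cell-like cells of 1 library, and 2-fold is the call. Against 0 UMIs, 3 counts over the class were used. All 36 pairs of the 9 genes were examined. Thinning took 1 random draw of UMIs for each comparison, so thinned shares of the same cells vary between comparisons. Loci come from GENCODE M21 and upstream sequences from RefSeq (GRCm38.p6). The 9 genes and the lists were chosen with earlier results of these data known. Named from each list are genes among its 2 highest and 2 lowest ratios, and for likeness the 3 genes of highest correlation over clusters of at least 20 cells, of which 1 is not reported here.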

Additional observations from a re-analysis of the deposited data

Results flagged for a closer look

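Barcodes left out of the cell classes also carried transcripts of the precursor genes. In the library labelled P180, 14 barcodes left out had a Vpreb1 or Igll1 UMI, with 49 UMIs of Igll1 among them, and 13 of the 14 had been removed by their doublet score. Of those 13, 5 held Vpreb1, Igll1, Ebf1 and Cd79a together. The score cut-off came from the set rate, and Scrublet's own threshold called 0 doublets in this library.

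In the library labelled E18.5, 4 such barcodes were left out, 3 of them by doublet score. All 5 UMIs of Igll1 in that library lay in 1 of them, a barcode of 7171 UMIs that also had 3 UMIs of Vpreb1, 5 of Dntt, 17 of Ebf1 and 13 of Ighm. A further flag is the 21 UMIs of Dntt in 4 left-out barcodes labelled E18.5, of which 3 had Flt3. The P180 library had 3 Dntt UMIs left out, in 1 barcode. These barcodes were set aside by rule, and no class level above counts them.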

How the results depend on the processing

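No paired analysis was possible because each label has 1 library, and for the same reason no library could be left out. In B cell-like cells labelled P180, the share with a surrogate light chain UMI was 12.1% after thinning to 1000 UMIs per cell, against 22.9%, and between 18.4% and 25.1% under the other settings. For the E18.5 label the share was 0 with at least 2 UMIs required and 0 after thinning to 3000 UMIs. The share of Vpreb1 cells with Igll1 was 43.8% at 1000 UMIs and 77.8% to 88.9% otherwise. Thinning leaves fewer UMIs per cell. A mitochondrial limit of 10% left 812 B cell-like cells labelled E18.5. The count of genes past 2-fold was 5 in all settings but those with at least 200 UMIs or with Ms4a1 or Ighd cells alone, where it was 4. The log2 ratio of Ebf1 lay between -0.73 (cells with an Ms4a1 or Ighd UMI) and -0.18, apart from 0.18 when each cell weighed the same. Both of these settings were added after seeing the data. Rag2 and Dntt are limited by depth, with 19 and 5 UMIs.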
